A study of Mus musculus with 12 samples.

Results

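Liver RNA from 2 generations of male mice descended from obese females was compared directly: the 4 arrays titled MatOb F3 against the 4 arrays titled MatOb F2. These 8 arrays were chosen by their titles alone, out of 12 in the series. All animals were C57BL/6 males aged 12 weeks, and the tissue was liver. The F2 and F3 animals descended from obese Avy/a females, which carry the viable yellow allele of agouti, a coat colour gene whose constant activity makes mice obese. The sample labels call the animals F2 or F3 sons of an obese mother, whereas the design text calls them grandsons and great-grandsons of such females, and how many generations lay between the obese female and each male was taken no further than those words. No source used here gives the agouti genotype of the F2 and F3 males. The other 4 arrays came from males with lean control parents. They took no part in the comparison, and their values are given beside some genes as a background level. The labels do not say whether each replicate is its own animal, and p-values then cover only the spread between these samples, which may be technical.

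In a family line exposed through the mother, the grandmother's diet or body fat reaches a fetus and the germ cells inside that fetus. Animals of later generations did not meet the exposure directly, and successive generations are compared to see whether a difference fades or persists. The liver is where fat is oxidised, stored and newly made. PPAR-alpha, a receptor that responds to fatty acids, drives the oxidation genes in fasting, while insulin and the transcription factors SREBP-1c, ChREBP and SREBP-2 drive synthesis of fatty acids and cholesterol after feeding.

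Expression was measured on an Affymetrix whole-transcript array as log2 values, where a difference of 1 is a 2-fold change. Of 30142 genes with a probe set, 18684 lay above the median of all probe sets (4.54) and were tested. Of these, 13530 were protein coding. Of 14 hepatocyte marker genes 13 were tested. Alb, serum albumin, measured between 13.24 and 13.39 on all 8 arrays, and Ttr, transthyretin, between 12.32 and 12.50. The Y-linked genes Uty, Kdm5d and Eif2s3y were measured on every array, with F3 minus F2 differences of 0.04, 0.02 and 0.02. Pancreas acinar markers, from a neighbouring tissue, had a median difference of 0.01 over the 6 genes tested.

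The 8 arrays did not group by generation. Across genes, which are not independent replicates, pairs of arrays correlated with r between 0.979 and 0.994 within F2, between 0.983 and 0.994 within F3, and between 0.979 and 0.994 between the generations. The closest partner of 6 arrays belonged to the other generation, as a description. The arrays instead fell into 2 sets by the mean level of 344 small nucleolar RNA genes, short RNAs that guide chemical modification of ribosomal RNA. F2 replicates 2 and 3 and F3 replicate 4 had means of 5.87, 5.93 and 6.00, and the other 5 arrays lay between 6.31 and 6.40. The median r was 0.994 within a set and 0.985 between sets, and the first principal component, with 42.7% of the variance, followed the sets. F2 replicate 2 was the array furthest from its own group, with 177 genes more than 1 from the mean of the other F2 arrays, followed by F3 replicate 4 with 163. The other 6 arrays had between 30 and 96 such genes. The sets carry no label, so whether they reflect animals, extraction or hybridisation was not tested. Values within the sets, or without single arrays, are given beside the main lists and some genes below.

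**Figure D1:**
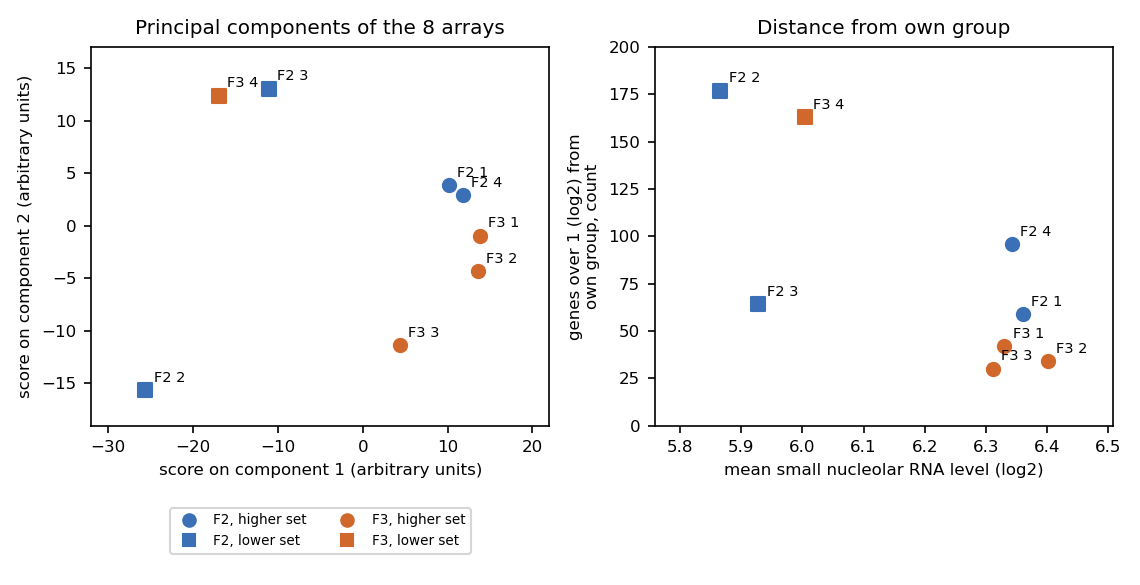
Left, each array's scores on the first 2 principal components over all genes tested. Right, the number of genes more than 1 (log2) from the mean of the other arrays of the same group, against the mean small nucleolar RNA level. Blue is F2, orange is F3, circles are the higher set and squares the lower set of small nucleolar RNA level. F2 and F3 points are mixed within each set, and F2 replicate 2 (177 genes) and F3 replicate 4 (163 genes) lie furthest from their groups.

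No gene passed the test between the generations. Over all genes the F3 mean was higher for 51.4% and lower for 48.6%. With limma and Benjamini-Hochberg adjustment over the 18684 genes, 0 genes had an adjusted p under 0.05 (0.0% called), the smallest adjusted p was 0.9999, and no gene had an adjusted p under 0.10. At an unadjusted limma p under 0.05 there were 681 genes (3.64% of those tested), where 0.05 of the genes tested is 934.2. Of these, 473 had the higher mean in F3 (2.53%) and 208 the lower (1.11%). That lean depended on scaling: after quantile normalization the split was 246 higher and 377 lower, and after centring each array on its median it was 251 and 225. It also depended on gene class: over protein-coding genes alone the split was 157 higher and 193 lower. Quantile normalization also moved the median difference over all genes from 0.0026 to -0.02. None of the genes and lists below therefore passed a test, and all are given as measured levels and differences. Counts of list members below stand against 3.64% of all genes with an unadjusted p under 0.05 and 2.45% without overlap between the groups. For 98.6% of genes the whole 95% confidence interval lay within a 2-fold difference in either direction, and for 94.6% it lay within 1.5-fold.

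For 458 genes the 4 F3 arrays lay wholly on one side of the 4 F2 arrays (2.45% of genes tested), 302 with F3 higher (1.62%) and 156 with F3 lower (0.835%). After centring on array medians there were 256, and after quantile normalization 394, of which 117 had F3 higher. Over protein-coding genes alone there were 227, of which 89 had F3 higher and 138 lower. Only 21 of the 458 (0.112% of genes tested) also differed by at least 0.3. The 16 with F3 higher were mostly small or poorly characterised transcripts: 5 predicted genes, 5 small RNAs, 1 small nucleolar RNA, 1 microRNA, 1 ribosomal protein pseudogene and 3 annotated genes, namely Prss8, Srsf5 and an immunoglobulin kappa segment. The 5 with F3 lower were all annotated genes: Slc5a6, Slc25a22, Zfand2a, Cpt1a and Ddit3.

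Slc5a6, the sodium-dependent carrier that brings biotin and pantothenate into cells, had the smallest p of the annotated genes. It measured 7.12, 7.04, 7.05 and 7.14 in F2 replicates 1 to 4 and 6.83, 6.82, 6.72 and 6.62 in F3 replicates 1 to 4. The F2 values were nearly level and every F3 array lay under them. The difference was -0.34 (SE 0.06, 4 arrays a group; limma adjusted p = 0.9999), and it was -0.34 within the higher set of arrays and -0.42 within the lower set. The control arrays spanned both generations, from 6.81 to 7.28. Slc25a22, a mitochondrial glutamate carrier, measured 8.39, 8.60, 8.42 and 8.42 in F2 and 8.02, 8.23, 8.28 and 7.99 in F3, a difference of -0.32 (SE 0.08). Its control arrays, from 8.22 to 8.62, reached into both ranges.

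Cpt1a, which encodes the liver carnitine palmitoyltransferase that admits long-chain fatty acids into mitochondria, was the one gene of fat oxidation among the 21. It measured 11.40, 11.40, 11.32 and 11.53 in F2 and 11.21, 11.29, 10.95 and 10.87 in F3. The difference was -0.33 (SE 0.10), with -0.31 and -0.49 in the higher and lower sets, where the lack of overlap again fixed the sign. F3 replicates 3 and 4 were the lowest arrays and F3 replicate 2, at 11.29, lay just under F2 replicate 3. The controls, at 11.10, 11.49, 11.02 and 11.04, lay in the ranges of both generations.

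Ddit3 and Zfand2a are stress genes. Ddit3 encodes CHOP, a transcription factor of the unfolded protein and amino acid responses, and measured 6.98, 6.63, 7.06 and 6.62 in F2 and 6.47, 6.34, 6.55 and 6.62 in F3. Its groups all but touched, since F2 replicate 4 and F3 replicate 4 were equal to 2 decimals, and the difference was -0.33 (SE 0.11). Zfand2a, an arsenite- and heat-inducible regulator of the proteasome, measured 8.32, 8.16, 8.51 and 8.07 in F2 and 7.90, 7.72, 7.97 and 8.04 in F3, a difference of -0.35 (SE 0.11).

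Among the genes higher in F3, Prss8, a membrane-anchored serine protease of epithelia, measured 6.23, 6.26, 6.00 and 6.18 in F2 and 6.35, 6.54, 6.74 and 6.48 in F3, a difference of 0.36 (SE 0.09). Srsf5, a splicing factor of the serine- and arginine-rich family, measured 8.20, 8.11, 7.99 and 8.39 in F2 and 8.63, 8.48, 8.46 and 8.41 in F3, a difference of 0.32 (SE 0.09). The lowest F3 array of Srsf5, at 8.41, lay just above the highest F2 array, at 8.39. The immunoglobulin segment was dim throughout, with 4.48 to 4.70 in F2 and 4.81 to 5.11 in F3, near the 4.24 median of the negative control probe sets. The controls of Prss8 (6.07 to 6.75) and Srsf5 (7.90 to 8.46) again spanned both generations.

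**Figure D2:**
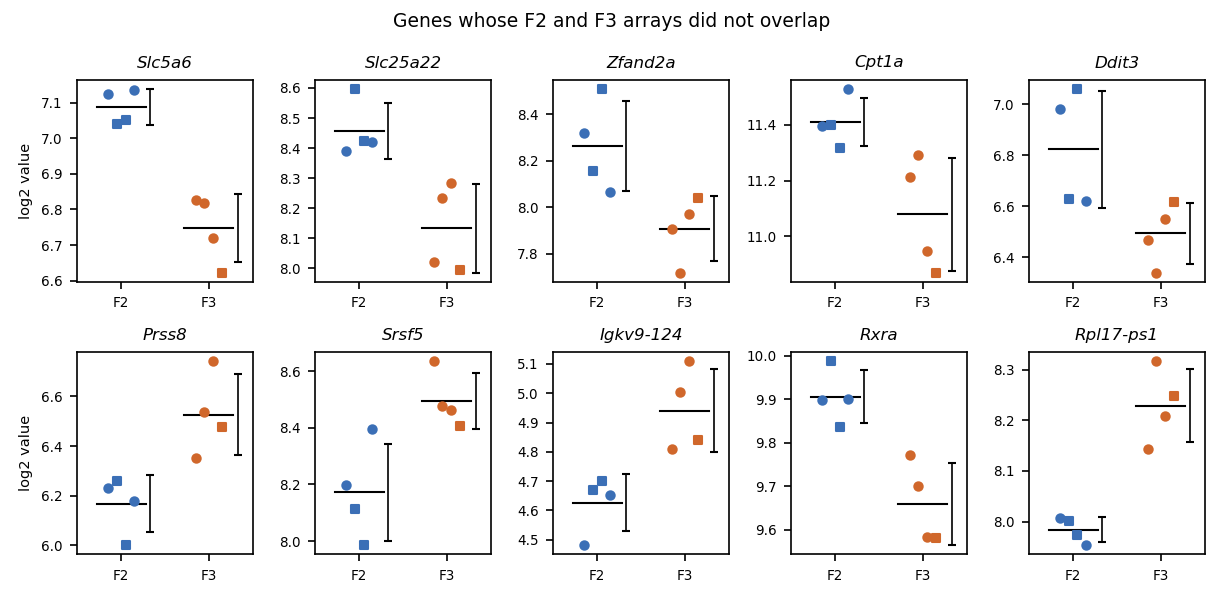
Log2 values of 10 genes whose F2 and F3 arrays did not overlap, 1 point per array; each panel has its own vertical scale. Blue is F2, orange is F3, squares mark the lower set of small nucleolar RNA level, horizontal lines are means and bars are SD (n = 4). Slc5a6 shows a wide gap (lowest F2 array 7.04, highest F3 array 6.83), and Srsf5 a narrow one (8.39 against 8.41).

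Genes of fatty acid oxidation had lower means in F3, as Cpt1a did. Of 28 tested genes, 25 were lower and 3 higher, with a median difference of -0.16, whereas 48.6% of all genes were lower and their median was 0.0026. Without predicted genes, pseudogenes, receptor families, microRNAs and small RNAs, 43.5% of the remaining 13207 genes were higher and their median was -0.01. With an unadjusted p under 0.05 there were 3 (10.7%), all lower, where 1.11% of all genes were: Cpt1a, Angptl4 and Slc22a5. Angptl4, a PPAR-alpha target that inhibits lipoprotein lipase, measured 8.51, 7.92, 8.99 and 8.49 in F2 and 8.12, 8.12, 7.30 and 7.93 in F3, a difference of -0.61 (SE 0.24). F2 replicate 2 lay among the F3 arrays and F3 replicate 3 stood lowest. Slc22a5, the carnitine transporter OCTN2, differed by -0.41 (SE 0.17) and by -0.07 within the lower set, from 6.71 to 7.44 in F2 and from 6.33 to 6.89 in F3. Ppara itself, which encodes PPAR-alpha, differed by -0.18 (SE 0.14).

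The largest differences in this group were the most variable ones. Cyp4a14, Acot1 and Vnn1, all known PPAR-alpha targets, were singled out after their values were seen. Cyp4a14, a fatty acid omega-hydroxylase, measured 8.69, 6.92, 7.79 and 11.62 in F2 and 7.96, 8.82, 7.998 and 5.72 in F3. One F2 array, replicate 4, stood far above the rest and F3 replicate 4 far below, so the difference of -1.13 had an SE of 1.00, and it was -0.17 without F2 replicate 4. Acot1, a cytosolic acyl-CoA thioesterase, measured 8.23, 7.04, 8.21 and 9.15 in F2 and 7.45, 7.52, 6.93 and 7.37 in F3, a difference of -0.84 (SE 0.37), or -0.51 without F2 replicate 4. Vnn1, a pantetheinase, had the same 2 extremes as Cyp4a14, 9.85 in F2 replicate 4 and 6.68 in F3 replicate 4, and differed by -0.82 (SE 0.55), or by -0.43 without F3 replicate 4. The neighbouring genes Acot1, Acot2 and Acot3 are close copies, so their probe sets may share signal. The level of the whole list, taken as the median deviation of its genes from their 8-array means, was 0.10, -0.26, 0.07 and 0.32 in F2 replicates 1 to 4 and -0.02, 0.08, -0.19 and -0.18 in F3. The generations overlapped, with F2 replicate 2 the lowest array of all. Without F2 replicate 4 the median difference was -0.04, without F3 replicate 3 it was -0.11, and without F2 replicate 2 it was -0.26. It was -0.28 within the higher set and -0.06 within the lower set.

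Lipid droplet and lipolysis genes leaned the same way: 17 of 20 were lower in F3, with a median difference of -0.16, and 4 had an unadjusted p under 0.05, all lower, where 1.11% of all genes were. The median was -0.10 without F2 replicate 4 and -0.10 without F3 replicate 4. Pnpla2, adipose triglyceride lipase, which takes the first fatty acid off stored triglyceride, measured 8.72, 9.10, 9.24 and 9.15 in F2 and 8.50, 8.67, 8.17 and 8.86 in F3. F2 replicate 1 was the only F2 array within the F3 range, and the difference was -0.50 (SE 0.16). Cd36, a fatty acid importer, measured 7.68, 7.29, 7.62 and 8.14 in F2 and 7.39, 7.49, 7.05 and 6.99 in F3, a difference of -0.45 (SE 0.18). The droplet coat genes Plin2 and Plin4 differed by -0.21 (SE 0.09) and -0.39 (SE 0.16). Plin2 was close to level in F2, from 9.91 to 10.03, and reached down to 9.49 in F3 replicate 4. Cidea was the one member whose groups did not overlap, from 5.45 to 5.78 in F2 and from 5.22 to 5.43 in F3, and its relative Cidec, which fuses droplets, differed by -0.45 (SE 0.29). Adipocyte markers share Cidec, Fabp4 and Pparg with this list. Of the 7 adipocyte markers tested, 5 were lower in F3, its median difference was -0.02, and its level ranged from -0.14 to 0.13 in F2 and from -0.42 to 0.13 in F3. Their part in the result was not tested. In whole liver, fewer cells of a type and less RNA per cell cannot be told apart.

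Genes of fatty acid synthesis had higher means in F3, with wide spread. Of 23 tested, 16 were higher and 7 lower, and the median difference was 0.18. An unadjusted p under 0.05 was reached by 2 (8.7%), Thrsp and Pklr, both higher, where 2.53% of all genes were. Fasn, fatty acid synthase, had the largest difference of the list. It measured 10.95, 9.43, 9.49 and 9.18 in F2 and 10.53, 10.24, 11.78 and 10.30 in F3. F2 replicates 2, 3 and 4 lay under all F3 arrays, and F2 replicate 1 lay above 3 of them, so the difference of 0.95 had an SE of 0.44. Thrsp, a lipogenic regulator, showed the same single F2 array out of line, with 11.49, 9.83, 10.69 and 9.83 in F2 and 11.45, 11.08, 11.77 and 11.08 in F3, a difference of 0.89 (SE 0.35). Pklr, liver pyruvate kinase and a classic ChREBP target, differed by 0.45 (SE 0.16), from 10.23 to 10.74 in F2 and from 10.54 to 11.26 in F3.

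Acly, ATP citrate lyase, which supplies cytosolic acetyl-CoA and was named after its values were seen, measured 9.72, 8.50, 8.56 and 8.35 in F2 and 9.46, 9.17, 10.42 and 8.96 in F3, a difference of 0.72 (SE 0.37). Acaca, acetyl-CoA carboxylase, differed by 0.42 (SE 0.28) and again had F2 replicate 1 apart at 9.35 from 8.53 to 8.54 in the other F2 arrays. Scd1, the stearoyl-CoA desaturase, did not share the lean, at -0.09 (SE 0.09). In controls, Fasn measured between 10.30 and 11.44 and Thrsp between 10.70 and 11.59, and F2 replicates 2, 3 and 4 lay under all 4 control arrays for both genes, a description without a test. The level of the list was 0.30 in F2 replicate 1 and 0.45 in F3 replicate 3, and between -0.31 and 0.14 in the other 6 arrays. Without F2 replicate 1 the median difference was 0.38, without F2 replicate 2 it was 0.05 and without F3 replicate 3 it was 0.09.

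Cholesterol synthesis genes were higher in F3 for 15 of 18, with a median difference of 0.20. Insig1, the membrane protein that holds SREBP in the endoplasmic reticulum and is itself an SREBP target, was the one with an unadjusted p under 0.05. It measured 9.39, 8.82, 9.40 and 8.71 in F2 and 9.44, 9.20, 10.08 and 9.71 in F3, a difference of 0.53 (SE 0.22). Stard4, a cholesterol carrier, differed by 0.26 (SE 0.12). Sqle, squalene epoxidase, differed by 0.39 (SE 0.36), from 4.42 to 5.66 in F2 and from 4.81 to 6.34 in F3. F3 replicate 3 stood apart on the whole list, at 0.43 against -0.04 to -0.01 in the other F3 arrays, and without it the median difference was 0.07. The median was 0.12 without F2 replicate 3, and 0.16 within the higher and 0.10 within the lower set.

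**Figure D3:**
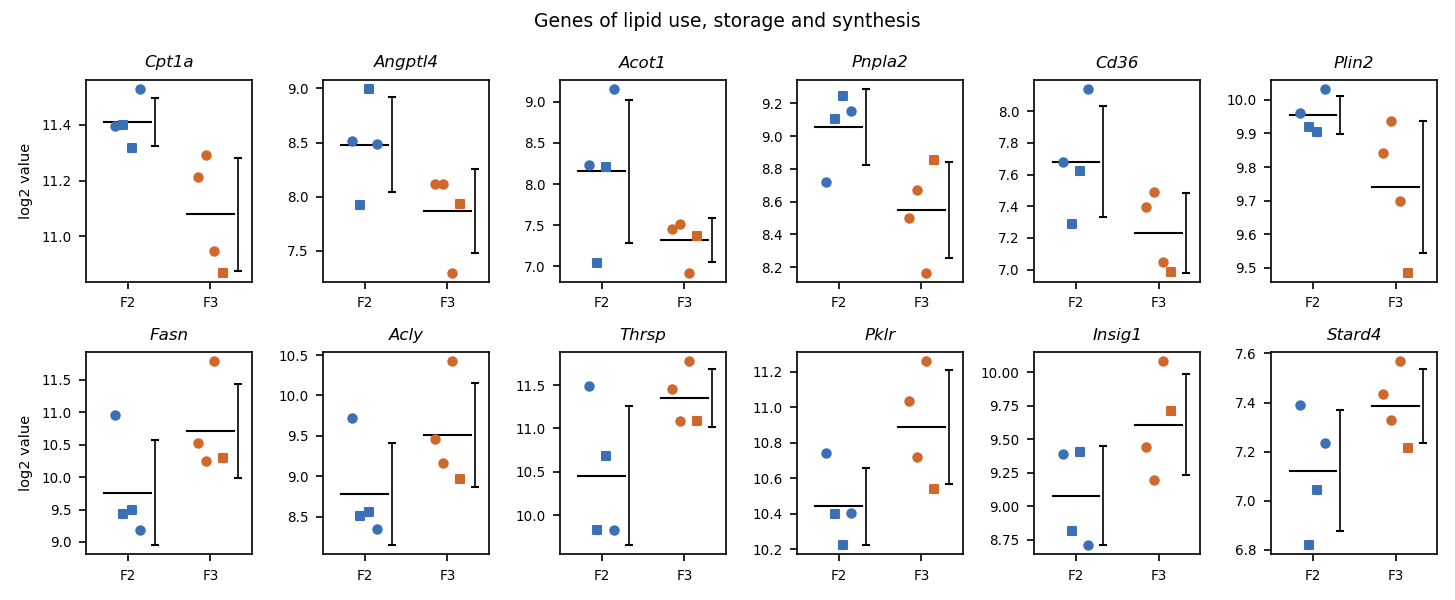
Log2 values of 12 genes of fat use, storage and synthesis, 1 point per array; each panel has its own vertical scale. Colours and symbols are F2 blue, F3 orange, squares for the lower set of small nucleolar RNA level; lines are means and bars SD (n = 4). The upper row (oxidation, lipolysis, uptake and droplet genes) has lower means in F3 and the lower row (members of the synthesis lists) higher means. Only Cpt1a has no overlap. Key genes of these lists that did not lean this way are not shown: Scd1 (-0.09), Srebf2 (-0.01) and G0s2 (0.03).

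Because the cholesterol genes leaned together, their promoters were searched for the CCAAT box, the site of the factor NF-Y, which works beside SREBP at many sterol genes. Promoters were windows from 250 bases before to 50 bases after the start in RefSeq GRCm38.p6. The letters CCAAT, on either strand, were present in the promoters of 14 of 14 matched members of the 18 tested, and in 37.4% of 32851 promoters. In fatty acid synthesis genes they were present in 12 of 18 matched members of 23. The 9-base sterol core TCACNCCAC, on either strand, occurred in 1 matched cholesterol gene, Hmgcs1, in 1 matched fatty acid synthesis gene, Mlxipl, and in 1.24% of all promoters. A gene counted when any of its windows held the letters, whereas the shares of all promoters count every window singly. The gene counts and those shares are therefore not like for like. These are matches of letters and not shown sites. Stretches are given for Hmgcs1, the cytosolic HMG-CoA synthase, because it held both motifs (chr13:119690101-119690325, plus strand), for Insig1, because it had the smallest p (chr5:28071176-28071220, plus strand), and for Fasn, because it had the largest difference among the synthesis genes (chr11:120824582-120824657, minus strand). They read 5′ to 3′ along the gene's strand, with CCAAT, its reverse complement ATTGG and the sterol core in capitals. In Fasn the capitals hold 2 overlapping matches side by side with another match upstream.
Hmgcs1: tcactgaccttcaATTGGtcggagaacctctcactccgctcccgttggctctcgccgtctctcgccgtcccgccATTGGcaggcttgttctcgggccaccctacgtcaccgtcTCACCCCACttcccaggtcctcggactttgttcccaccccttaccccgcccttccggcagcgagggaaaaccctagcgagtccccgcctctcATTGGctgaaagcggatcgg
Insig1: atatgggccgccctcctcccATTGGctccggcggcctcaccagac
Fasn: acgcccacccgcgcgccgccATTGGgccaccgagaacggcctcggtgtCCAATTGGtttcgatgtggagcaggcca

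Sugar handling genes differed singly rather than as a list. Over 23 genes of glycolysis, fructose and glycogen the median difference was 0.01 (-0.01 after quantile normalization or centring), with 13 higher. An unadjusted p under 0.05 was reached by 4 (17.4%), all with F3 higher, where 2.53% of all genes were: Pklr, Khk, Gckr and Pygl. Khk, ketohexokinase, the first enzyme of fructose use, measured 10.54, 10.40, 10.45 and 10.30 in F2 and 10.74, 10.56, 10.66 and 10.57 in F3. The groups did not overlap, and the difference was 0.21 (SE 0.07). Pygl, liver glycogen phosphorylase, also had no overlap, from 9.88 to 10.29 in F2 and from 10.30 to 10.52 in F3, a difference of 0.28 (SE 0.09). Gckr, the regulatory protein that holds glucokinase in the nucleus, differed by 0.17 (SE 0.07), and Gys2, liver glycogen synthase, by -0.14 (SE 0.15). Of 17 gluconeogenesis genes 10 were lower in F3 (median difference -0.03). Pck1, its rate-controlling carboxykinase, differed by -0.20 (SE 0.10), and Cebpb, a transcription factor of the fasted liver, by -0.25 (SE 0.10), which was the one unadjusted p under 0.05.

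Insulin and growth factor signalling genes showed no common shift, with 17 of 26 lower and a median difference of -0.04. Trib1, a pseudokinase that lowers C/EBP-alpha and hepatic fat synthesis, measured 7.43, 7.22, 7.39 and 7.43 in F2 and 7.26, 6.93, 6.82 and 7.02 in F3, a difference of -0.36 (SE 0.10) with only F3 replicate 1 inside the F2 range. Its relative Trib3, an inhibitor of AKT, differed by -0.16 (SE 0.06). Grb14, an adaptor that inhibits the insulin receptor, was the one member without overlap (3.85%, against 2.45% of all genes). It ranged from 7.46 to 7.57 in F2 and from 7.59 to 7.63 in F3 (difference 0.11, SE 0.05). Igf1 differed by -0.06 (SE 0.08). Igfbp1, an IGF-binding protein that insulin lowers, differed by -0.23 (SE 0.27), but by 0.31 within the higher set of arrays.

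Rxra encodes the partner with which PPAR-alpha, FXR and LXR bind DNA. It was the one of 31 nuclear receptor genes without overlap (3.23%, against 2.45% of all genes). Rxra measured 9.90, 9.99, 9.84 and 9.90 in F2 and 9.77, 9.70, 9.58 and 9.58 in F3. The difference was -0.25 (SE 0.06), and the 31 genes had a median of -0.02. Slc38a2, an amino acid carrier that amino acid shortage induces, was another without overlap, at 9.58, 9.50, 9.72 and 9.56 in F2 and 9.33, 9.35, 9.44 and 9.34 in F3 (difference -0.23, SE 0.06). Of 26 carriers of the hepatocyte surface, 15 were lower and their median difference was -0.03.

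Cyp2c genes, a family of cytochrome P450 enzymes for drugs, steroids and fatty acids, were higher in F3 for 11 of 12, with a median difference of 0.18. Of these, 4 had an unadjusted p under 0.05, where 3.64% of all genes did, and 3 showed no overlap, where 2.45% did: Cyp2c67, Cyp2c68 and Cyp2c40. Cyp2c67 measured 11.14, 11.19, 11.29 and 11.14 in F2 and 11.34, 11.49, 11.34 and 11.65 in F3, a difference of 0.26 (SE 0.08). Cyp2c68 and Cyp2c40 were likewise highest in F3 replicate 4, and differed by 0.29 (SE 0.09) and 0.23 (SE 0.08). These are near-identical copies in one cluster, so their probe sets may read one another's transcripts and do not count as 3 separate results. Controls for Cyp2c67 lay between 10.90 and 11.11, under every F2 and F3 array. Those for Cyp2c68, from 10.06 to 10.36, overlapped its F2 arrays, from 10.26 to 10.43. Those for Cyp2c40 reached 10.39, equal to 2 decimals with its lowest F2 array. The median ranged from 0.12 to 0.25 when single arrays were left out. For the wider list of xenobiotic metabolism, 32 of 45 were higher and the median was 0.09, but it was -0.02 without F2 replicate 2, which stood at -0.35 on that list.

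Bile acid genes were higher in F3 for 14 of 21, with a median of 0.07 that became -0.02 without F2 replicate 2 and was -0.07 within the higher set. Abcb11, the bile salt export pump, measured 10.45, 10.30, 10.34 and 10.42 in F2 and 10.58, 10.37, 10.59 and 10.79 in F3, a difference of 0.20 (SE 0.09), with 0.08 in the higher set and 0.46 in the lower set. Akr1d1, the 5-beta-reductase of bile acid and steroid metabolism, differed by 0.49 (SE 0.22). Cyp8b1, which sets the share of cholic acid, differed by -0.23 (SE 0.16). Cyp21a1, steroid 21-hydroxylase, better known from the adrenal, differed by -0.36 (SE 0.12), with 6.48 to 6.96 in F2 and 6.22 to 6.66 in F3.

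Stress-responsive lists had lower medians in F3 than all genes, without separating the groups. Glucocorticoid targets were lower for 16 of 20, with a median of -0.17. Immediate early genes were lower for 23 of 25, with a median of -0.07, and heat shock genes for 16 of 18, with a median of -0.12. Targets of NF-kB, the inflammatory transcription factor, were lower for 15 of 20 with a median of -0.07, which was -0.02 without F2 replicate 2. Genes of the endoplasmic reticulum stress response were lower for 16 of 25 with a median of -0.03, which became 0.03 without either F2 replicate 3 or F3 replicate 2. Some genes sit in several lists: Per1 is also a clock gene and Trib3 also an insulin signalling gene.

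Among glucocorticoid targets, Mt2, a metal-binding metallothionein that stress and inflammation also induce, had the largest difference of any gene tested, -1.23 (SE 0.79). It measured 7.63, 11.38, 8.52 and 8.96 in F2 and 7.11, 7.73, 7.31 and 9.44 in F3, and without F2 replicate 2 the difference was -0.47. Errfi1, an inhibitor of the EGF receptor, was the only member with an unadjusted p under 0.05, and differed by -0.18 (SE 0.06). Per1, a clock gene that glucocorticoids induce, differed by -0.38 (SE 0.17), and Fkbp5, a steroid receptor cochaperone, by -0.17 (SE 0.17). The list's level was 0.08, -0.03, 0.23 and -0.07 in F2 and -0.25, -0.11, -0.10 and 0.18 in F3. F2 replicate 3 and F3 replicate 4 were both high, and the median difference was -0.06 without F2 replicate 3 and -0.07 within the lower set. The 25 clock genes and outputs had a median of -0.02.

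Of the immediate early genes, Zfp36, which encodes the mRNA-destabilising protein tristetraprolin, measured 8.10, 8.25, 8.67 and 8.06 in F2 and 7.92, 7.82, 8.06 and 7.998 in F3, a difference of -0.32 (SE 0.13). Klf2, a zinc finger factor, differed by -0.26 (SE 0.09). Egr1 and Fos, transcription factors that respond within minutes, differed by -0.41 (SE 0.21) and -0.29 (SE 0.19), both with F2 replicate 4 as the highest array, at 7.41 and 6.42, and by -0.20 and -0.07 without it.

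Hspa1a, the inducible HSP70 chaperone, ranged widely: 8.38, 6.19, 8.96 and 7.90 in F2 and 5.82, 6.35, 7.51 and 7.34 in F3. The F2 arrays held both the highest value and one of the lowest, and the difference was -1.10 (SE 0.59), with -1.58 in the higher set and -0.23 in the lower set. Dnajb1, its HSP40 partner, differed by -0.43 (SE 0.16), the one unadjusted p under 0.05 in the list, from 7.05 to 7.67 in F2 and from 6.74 to 7.16 in F3. Hsph1, a nucleotide exchange factor for HSP70, differed by -0.42 (SE 0.52) and by 0.73 within the lower set. The level of the list ran from -0.29 to 0.34 in F2 and from -0.30 to 0.22 in F3, and its median difference was 0.11 within the lower set and -0.05 without F2 replicate 3. Hspa5, the endoplasmic reticulum chaperone BiP, differed by -0.11 (SE 0.22), and Xbp1, a transcription factor of the unfolded protein response, by 0.14 (SE 0.11).

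The heat shock element, the site of heat shock factor 1, was searched as GAA, any 2 bases, TTC, any 2 bases and GAA on either strand. It was present in the promoters of 4 of 15 matched members, Hsph1, Chordc1, Hspd1 and Hspe1, and in 0.60% of all promoters. The amino acid response core TTGCATCA, on either strand, was present in 3 of 23 matched endoplasmic reticulum stress genes, Atf3, Chac1 and Herpud1, and in 0.89% of all promoters. Here too a gene counted when any of its windows matched, while the shares of all promoters count single windows. Neither share says that a factor bound. Hspd1 encodes the mitochondrial chaperonin HSP60, shares this stretch with its head-to-head neighbour Hspe1, and is shown because 2 overlapping copies of the element lay in it, in capitals. The stretch is chr1:55088039-55088096 of GRCm38.p6, minus strand, 5′ to 3′ along Hspd1. Hspd1 differed by -0.08 (SE 0.07).
Hspd1: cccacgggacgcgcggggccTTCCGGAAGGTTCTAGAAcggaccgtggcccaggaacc

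Acute phase proteins marked single arrays rather than a generation. Saa1, serum amyloid A, measured 9.67, 12.66, 9.03 and 7.85 in F2 and 8.57, 8.51, 11.95 and 11.65 in F3. One F2 array and 2 F3 arrays were high, and the difference was 0.37 (SE 1.14). Lcn2, lipocalin 2, measured 5.92, 10.33, 6.42 and 5.73 in F2 and 5.94, 6.00, 7.48 and 10.21 in F3, a difference of 0.31 (SE 1.21). Of 27 acute phase genes 20 were lower in F3, with a median of -0.04, which became 0.13 without F2 replicate 2. One control array was also high for Saa1, at 12.03, and measured 8.83 for Lcn2, between the high and the low arrays. Among NF-kB targets, Tnfaip3, the feedback inhibitor A20, differed by -0.23 (SE 0.10), Nfkbiz by -0.22 (SE 0.09) and the chemokine gene Cxcl1 by -0.50 (SE 0.25). Hmox1, heme oxygenase 1, differed by -0.32 (SE 0.17).

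Markers of other cells were measured beside these lists. Kupffer cell markers, from the resident macrophages of liver, were lower in F3 for 11 of 16, with a median of -0.06, which became 0.09 without F2 replicate 2. Their level was 0.42 in F2 replicate 2, the array with the highest acute phase level, and between -0.15 and -0.08 in the other F2 arrays, and it ranged from -0.30 to 0.22 in F3. Cd5l, a macrophage-secreted protein, was 9.72 in F2 replicate 2 and 8.75 to 8.85 in the other F2 arrays. Their part in the stress and inflammatory lists was not tested. Of 17 sinusoidal endothelial markers 10 were lower (median -0.03). Stab1, a scavenger receptor of these cells, was the one without overlap between groups (5.88%, against 2.45% of all genes), with a difference of -0.14 (SE 0.06). Of 19 stellate cell and matrix genes 13 were higher (median 0.05). Lrat, the retinol-esterifying enzyme of stellate cells, measured 7.28, 6.96, 7.45 and 7.49 in F2 and 7.89, 7.66, 7.71 and 7.49 in F3, a difference of 0.39 (SE 0.13), with F3 replicate 4 level with the highest F2 array. Markers of B and plasma cells (9 genes), T and natural killer cells (8) and neutrophils and monocytes (11) had medians of -0.05, -0.0047 and -0.01, with F2 replicate 2 again the highest array on each, and 0.02, 0.08 and 0.06 without it.

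**Figure D4:**
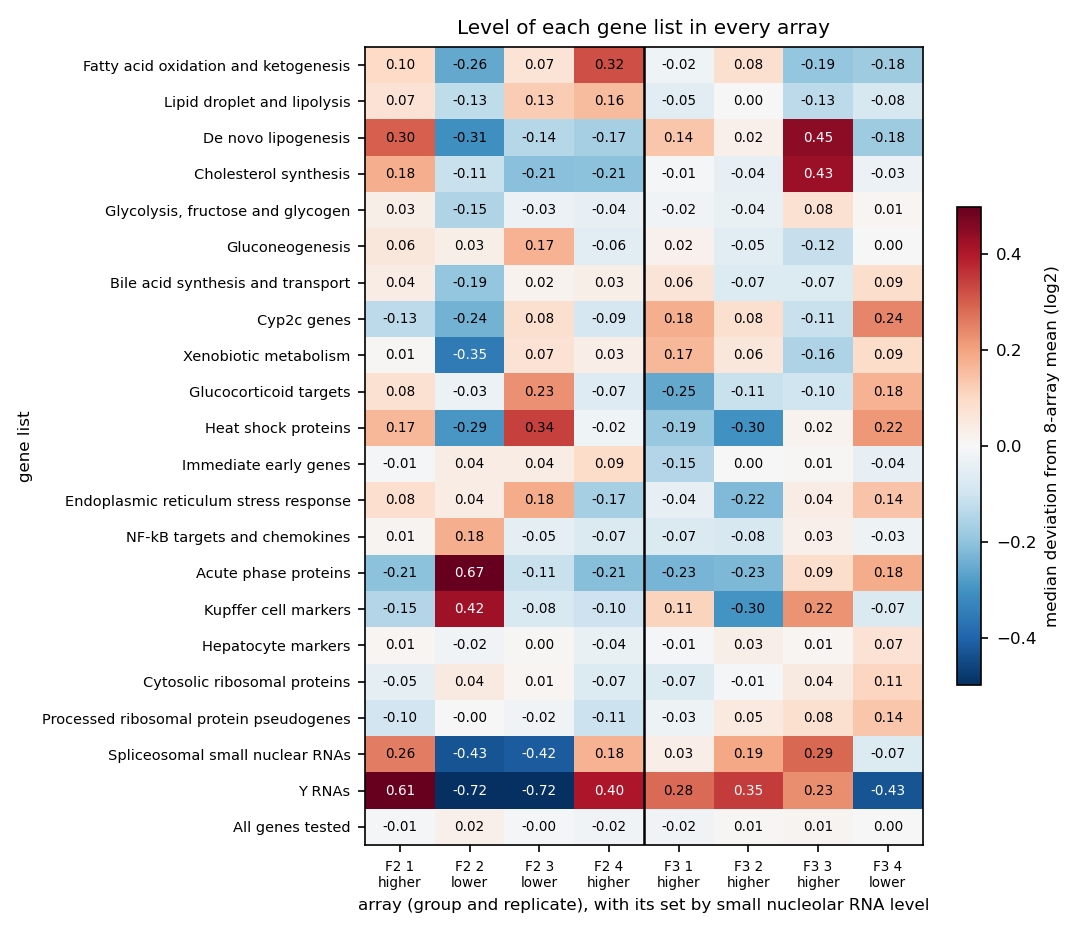
Level of 21 gene lists and of all genes tested in each array, given as a list's median deviation (log2) from each gene's mean over the 8 arrays; red is higher, blue is lower, and colours saturate at 0.5 in either direction. The vertical line divides F2 (left) from F3 (right), and the words under each array give its set by small nucleolar RNA level. No list divides cleanly at the line: F2 replicate 2 is low for xenobiotic metabolism (-0.35) and high for acute phase proteins (0.67), and F3 replicate 3 is high for lipogenesis (0.45) and cholesterol synthesis (0.43).

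Processed ribosomal protein pseudogenes were mostly higher in F3. They are copies of ribosomal protein mRNAs inserted into the genome, many of them nearly identical in sequence to their source. Of 187 tested, 173 were higher in F3 and 14 lower. The median difference was 0.11. An unadjusted p under 0.05 was reached by 53 (28.3%), all higher, and 34 had no overlap between groups (18.2%), all higher, against 3.64% and 2.45% over all genes. Their probe sets are not independent, since the pseudogenes resemble one another and the expressed genes, and 9 of the 187 shared all 8 values with another gene. The lean was not theirs alone. Of 3771 predicted genes 67.5% were higher in F3, with a median of 0.04, and 251 had an unadjusted limma p under 0.05. Of the 490 genes in the whole pseudogene class, which includes ribosomal ones, 74.5% were higher, with a median of 0.05.

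Rpl31-ps23 measured 5.56, 5.71, 5.66 and 5.73 in F2 and 5.91, 5.96, 6.00 and 6.05 in F3, a difference of 0.32 (SE 0.06). Rpl17-ps1 measured 8.01, 8.001, 7.97 and 7.95 in F2 and 8.14, 8.32, 8.21 and 8.25 in F3, a difference of 0.25 (SE 0.05). Both groups were tight and apart. For all 187 the level was -0.10, -0.0034, -0.02 and -0.11 in F2 and -0.03, 0.05, 0.08 and 0.14 in F3, so F3 replicate 1 lay among the F2 arrays. The median difference was 0.13 within the higher set, 0.14 within the lower set, 0.07 after quantile normalization, and between 0.09 and 0.13 without any one array. Among the 153 with a mean level over 6, 146 were higher in F3, with a median difference of 0.11.

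The ribosomal protein genes themselves did not share it to the same degree. Of 28 tested, 17 were higher, the median difference was 0.03 (-0.01 after quantile normalization), and only Rpl35 had an unadjusted p under 0.05 and no overlap (difference 0.17, SE 0.06). For 71 pseudogenes the source gene was also tested. Those 18 source genes had a median difference of 0.01, with 10 higher. Of the 71 pseudogenes, 65 had a larger difference than their source gene, a count over related sequences that carries no test. Levels within such pairs were often unlike. Rpl31 had a mean level of 5.67 and Rpl31-ps10 10.18, and Rps18 6.24 and Rps18-ps3 10.35, while Rpl12, at 10.46, lay above Rpl12-ps1, at 7.03. Of the 62 ribosomal protein genes listed, 34 had no usable probe set. Whether the source gene probe sets read the abundant mRNAs was not tested. Over 56 genes of oxidative phosphorylation, another set of abundant short mRNAs, 40 were higher and the median was 0.04. Ndufa6, a subunit of complex I, was the one without overlap (1.79%, against 2.45% of all genes). It ranged from 8.12 to 8.31 in F2 and from 8.36 to 8.53 in F3 (difference 0.21, SE 0.06).

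**Figure D5:**
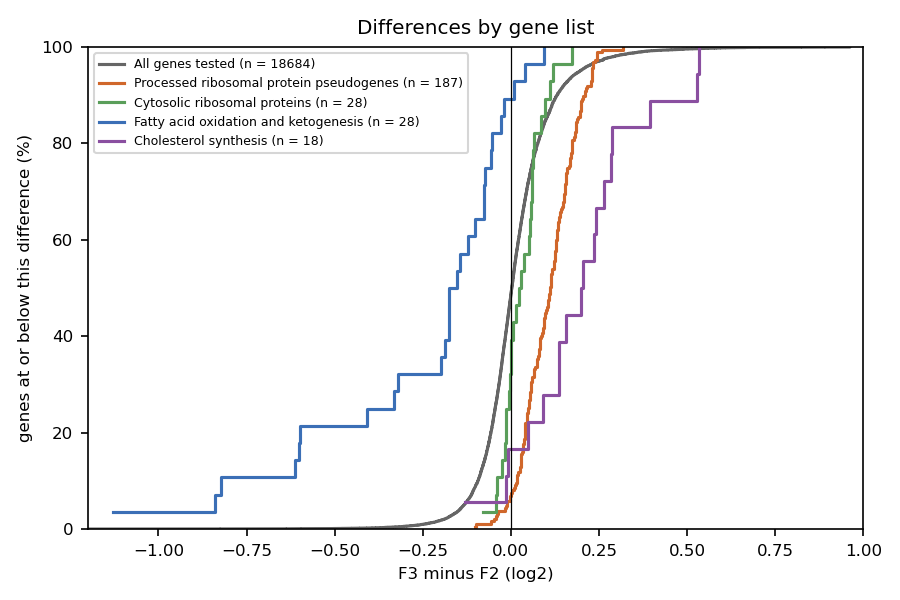
Cumulative share of genes (percent) at or below each F3 minus F2 difference (log2) for all 18684 genes tested and 4 lists. The curve of the 187 ribosomal protein pseudogenes is narrow and lies right of 0 (median 0.11), while the 28 ribosomal protein genes stay near all genes (0.03 against 0.0026). Fatty acid oxidation lies left (-0.16) and cholesterol synthesis right (0.20), both with long tails.

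Small RNAs and genes of the Y chromosome supplied most of the large differences, and the genes of chromosome Y followed the array sets. Of 56 genes that differed by 1.5-fold or more (0.3% of those tested), 40 were higher in F3 and 16 lower. An unadjusted p under 0.05 was reached by 8 (0.0428%). Among these were 4 small nucleolar RNAs with identical values on all 8 arrays, which do not count as separate results. Of the 56, 8 shared all 8 values with another gene. Genes of chromosome Y made up 19 of the 56, all higher in F3. Small RNAs, small nucleolar RNAs and microRNAs made up another 13, of which 12 were higher. The median difference of these 13 was 0.63. It was 0.35 with the set as a block, 0.13 within the higher set and 0.77 within the lower set. Over the 33 genes of chromosome Y tested, most of them predicted copies of multicopy families, the median level was 5.51, 3.99, 3.96 and 5.78 in F2 and 6.02, 6.17, 5.92 and 4.01 in F3. The 3 arrays of the lower set were the 3 low ones. Their median difference of 0.61 was 0.15 with the set as a block, 0.24 within the higher set and -0.03 within the lower set, while the median deviation of the single-copy genes Uty, Kdm5d and Eif2s3y was -0.15, -0.01 and -0.11 in the 3 lower-set arrays (F2 replicates 2 and 3, F3 replicate 4) and between 0.0042 and 0.16 in the others.

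The class of 527 other small RNAs had a median difference of 0.20, with 482 higher in F3. With the set as a block it was 0.08, within the higher set -0.01 and within the lower set 0.26. The 344 small nucleolar RNAs had a median of 0.10, of 0.01 with the block and of 0.05 within the lower set. Rny1, a Y RNA, a small non-coding RNA of the Ro ribonucleoprotein, measured 7.69, 6.19, 6.09 and 7.50 in F2 and 7.35, 7.43, 7.32 and 6.53 in F3. It differed by 0.29 (SE 0.39), by -0.005 with the block and by -0.22 within the higher set. The 2 Y RNAs tested had a median difference of 0.22 over all 8 arrays and 0.29 within the lower set. All 13 spliceosomal small nuclear RNAs were higher in F3 (median 0.12). Their median was 0.04 with the block, -0.09 within the higher set and 0.27 within the lower set. Of the 527 small RNA genes 135 shared all 8 values with another gene.

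In 29 of the 56 genes F3 replicate 4 was the array furthest from the median of its own group, and in 14 it was F2 replicate 2. F3 replicate 4 was the only F3 array in the lower set, which held F2 replicates 2 and 3. By this measure a gene that follows the sets therefore tends to mark F3 replicate 4. Leaving out single arrays turned the direction of 1 of the 56, Obp2a. The 19 genes of annotated function outside chromosome Y were lower in F3 for 13 and higher for 6, and included Mt2, Hspa1a, Cyp4a14, Acot1, Vnn1 and Angptl4 on the lower side and Fasn, Thrsp and Acly on the higher.

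MicroRNA precursors differed little. Of 261 tested, 153 were higher in F3, with a median of 0.03, and 5 had an unadjusted p under 0.05, where 3.64% of all genes did. For the 248 named in the microRNA list the median went from 0.03 to -0.0001 after quantile normalization. The 3 with the lowest p are shown with their mature products, since the probe sets cannot tell precursor from mature RNA. Mir128-1 had no overlap, from 4.72 to 4.79 in F2 and from 4.46 to 4.66 in F3 (difference -0.24, SE 0.06). The precursor mmu-mir-6362 had none either, from 4.93 to 5.39 in F2 and from 5.40 to 5.71 in F3 (difference 0.33, SE 0.11). Mir5103 measured from 5.37 to 5.56 in F2 and from 5.48 to 5.79 in F3 (difference 0.21, SE 0.08). All 3 were dim, and the negative control probe sets had a median of 4.24. The mature sequences from RefSeq GRCm38.p6 carry no shared seed, the stretch from base 2 to base 8 that pairs with targets, in capitals.
mmu-miR-128-1-5p: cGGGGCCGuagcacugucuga
mmu-miR-128-3p: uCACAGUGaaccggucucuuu
mmu-miR-6362: gUGGGCAUcuaggcuaguucug
mmu-miR-5103: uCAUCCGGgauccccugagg

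Enzymes of DNA methylation and histone modification, and imprinted genes, are the candidates most often named for memory between generations, and they were nearly level. Of 51 chromatin enzymes 36 were lower in F3, with a median of -0.03 and differences from -0.14 to 0.17. Kmt2b, a histone H3 lysine methyltransferase, was the one with an unadjusted p under 0.05, at 6.90, 6.90, 6.82 and 6.80 in F2 and 6.70, 6.63, 6.72 and 6.82 in F3 (difference -0.14, SE 0.06). Dnmt3a, which sets new DNA methylation, differed by -0.06 (SE 0.07; 95% interval -0.22 to 0.10), and Ezh2, which places repressive histone methylation, by -0.04 (SE 0.05; -0.15 to 0.07). The 26 imprinted genes had differences from -0.14 to 0.13 and a median of 0.0019, and none had an unadjusted p under 0.05. Grb10, an imprinted growth inhibitor, differed by 0.06 (SE 0.06). The array reads RNA level, so DNA methylation was not measured.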

How the data were processed

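The authors deposited log2 expression values, 1 column for each array and 1 row for each probe set. Affymetrix Expression Console is named in the submitters' processing notes, and its version and settings, background correction and normalization included, were not stated there. Array medians lay between 4.49 and 4.60. Of 72688 probe sets, 30604 had 1 gene symbol, 2146 had several and 39938 were unnamed here. Symbols were updated through RefSeq GRCm38.p6 (827 changed). Where a gene had several probe sets (355 genes), the brightest on average was taken.

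F3 minus F2 was fitted on the 8 arrays without a covariate (R 4.3.3, limma 3.58.1, lmFit and eBayes, with 6 degrees of freedom left), with Benjamini-Hochberg adjustment and a threshold of 0.05, and the procedure was tested on simulated data. Unadjusted p-values are limma's. Having 4 arrays a group limits precision. The 62 gene lists are described by counts and medians and carry no test. Members, lists and the split of the arrays by small nucleolar RNA level were chosen with earlier results of these data known. Genes were named by rule: up to 12 per direction among called genes, or else among those without overlap and with a difference of at least 0.3, by lowest p, passing over predicted genes, pseudogenes, receptor families and small RNAs. Key genes of lists, the 2 lowest p per list and 3 microRNAs were added. Cyp4a14, Acot1, Vnn1, Acly, Cidea, Plin4, Grb14, Gckr, Hmgcs1, Hspd1 and Obp2a fall outside that rule and were named after their values were seen.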

Additional observations from a re-analysis of the deposited data

Results flagged for a closer look

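Dixon's test for 4 arrays was applied to 296 groups of 4 values, 1 per generation for each named gene, gene list and the small nucleolar RNA level, and 24 were marked (8.11%). Chance alone marks about 1 in 20. F2 replicate 2 was the marked array in 13 and F3 replicate 4 in 4.

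F2 replicate 2 was apart from the other F2 arrays for Slc25a22 (8.60), Ppara (9.60), Lcn2 (10.33), Cyp8b1 (9.55) and Cd5l (9.72). It was also apart for the levels of bile acid genes (-0.19), acute phase proteins (0.67), xenobiotic metabolism (-0.35), pericentral hepatocyte genes (-0.28), cell cycle genes (0.18), Kupffer cell markers (0.42), neutrophil and monocyte markers (0.17) and major urinary protein genes (-0.10). F2 replicate 1 was apart for Acaca (9.35) and Acly (9.72), and F2 replicate 4 for Cidea (5.78) and the agouti and melanocortin genes (0.19). F3 replicate 4 was apart for Rny1 (6.53), Y RNAs (-0.43), vomeronasal receptor genes (-0.34) and male-biased liver genes (0.12). F3 replicate 3 was apart for Slc38a2 (9.44) and cholesterol synthesis (0.43), and F3 replicate 1 for cholangiocyte markers (-0.087). No cause was tested.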

How the results depend on the processing

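Genes with an adjusted p under 0.05 numbered 0 under each alternative but one: there were 7 within the lower array set, where the lone F3 array had to be assumed to vary like the 2 F2 arrays. A different rule, a 1.5-fold difference plus p under 0.05 before adjustment, took 8 genes, of which 4 small nucleolar RNAs had identical values. Genes with an unadjusted p under 0.05 numbered 443 with all 12 arrays in one fit, 1092 within the higher set, 1079 with no filter, 443 with a stricter filter, 1079 over every probe set, 350 over protein-coding genes, 1173 with array weights and 1427 without both far arrays (F2 replicate 2 and F3 replicate 4, an alternative chosen after seeing the data). Leaving out 1 array gave between 493 (without F3 replicate 3) and 1143 (without F3 replicate 4). Genes without overlap numbered 4206 within the higher set, 11975 within the lower set, 256 after centring, 227 over protein-coding genes and 2593 without both far arrays, and between 747 and 1325 without 1 array, where fewer arrays make separation easier. The genes not overlapping with a difference of at least 0.3 numbered 272 within the higher set, 1579 within the lower set, 35 with no filter, 11 with a stricter filter, 8 over protein-coding genes and 263 without both far arrays, and between 38 and 166 without 1 array.

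Of 85 genes followed, 75 kept their direction under every alternative and 0 passed an adjusted p of 0.05. Many of the 85 were chosen for lack of overlap, a low p or a large difference, which favours a kept direction. When single arrays were left out, 51.4% of all genes tested kept their direction throughout, as did all 458 without overlap. The count of 75 is therefore no measure of reliability. Igfbp1 differed by 0.31 within the higher set and 0.055 without both far arrays, and Cd5l by 0.066 and 0.071. Within the lower set Hsph1 differed by 0.73, Hspa5 by 0.12, Xbp1 by -0.033 and Fkbp5 by 0.10. Rny1 differed by -0.005 with the set as a block and by -0.22 within the higher set, and Dnmt3a by 0.020 without both far arrays. Without 1 array, Hspa5 ranged from -0.26 to 0.063, Saa1 from -0.28 to 1.32 and Lcn2 from -0.63 to 1.38. Of 1069 list medians computed under alternatives 192 had the opposite sign, among them those of clock genes, oxidative phosphorylation, ribosomal protein genes, sugar handling, microRNAs and imprinted genes, all near 0. The causes were not tested.

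The replicate numbers did not pair the arrays: same-numbered deviations correlated across genes at 0.25, -0.29, -0.35 and -0.47. With the replicate number as a block there were 0 adjusted calls and 576 genes with an unadjusted p under 0.05. Background limits the dim probe sets: 57.0% of negative control probe sets lay at or below the filter.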
